A study of Mus musculus with 22 samples.

Results

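Drd4 encodes the D4 dopamine receptor and Adrb1 encodes the β1-adrenergic receptor. Their levels were followed in RNA from purified cells of the mouse retina. The 2 genes were taken by symbol from a table of 13812 genes, because earlier results of these data had pointed to them. The genes were selected on their measured levels, those of Drd4 in cones and those of Adrb1 in cones and rod bipolars, so the cone levels of both and the rod bipolar level of Adrb1 are given as descriptions with no test. Tests were made on rods, on bipolars and, for Drd4, on rod bipolars against cone bipolars. Rod bipolars are a class of bipolars, so the tests of Adrb1 in bipolars are not fully free of this selection.

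Rods and cones, the photoreceptors, turn light into a signal, which bipolar cells carry on to the inner retina. Cells of these 3 kinds were taken on postnatal day 7, 13 or 30 (P7, P13 and P30). At P13 the bipolars were also sorted into rod bipolars, which contact rods, and cone bipolars, which contact cones. Each of these 11 groups had 2 libraries, 22 in all. The series' design text calls the bipolars ON-bipolar cells, the class that depolarises to light, and the sample labels call them bipolars. No group is labelled as treated, and the sources used here do not give the strain, the genotype, the sorting marker or the time of day of collection. The labels do not say that the replicate libraries came from separate animals, so each p-value stands against a spread between libraries that may be only technical. In RNA from sorted populations, a lower level may mean fewer cells that make a transcript or less of it per cell, and these cannot be told apart.

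Dopamine and noradrenaline are catecholamines that act through G protein-coupled receptors. In the retina, dopamine is released by a class of amacrine cell, mainly in the light, and helps to set the retina to day vision. The D4 receptor couples to inhibitory G proteins that lower cyclic AMP and is known for its action in photoreceptors, where cyclic AMP controls, among other things, the coupling of rods and cones through gap junctions. The β1-adrenergic receptor couples to the stimulatory G protein Gs, which raises cyclic AMP, and is best known in the heart.

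Levels are in CPM, the reads of a gene in each library after scaling to a common library size by the authors. Libraries held 14.4 to 54.4 Mreads assigned to genes. The photoreceptor libraries, with at least 31.4 Mreads, were all deeper than the bipolar ones. Mitochondrial genome transcripts took 2.18% to 38.7% of a library. The highest shares were those of cones at P30 (38.7% and 28.6%), against 9.88% and 6.39% in rods at P30. Each sorted type carried its defining markers, but bipolars at P30 also carried those of Müller glia. The 6 ON-bipolar markers summed to 4593 to 16947 CPM in the bipolar groups and at most 161 CPM elsewhere. In bipolars at P30 the 6 Müller glia markers summed to 4983 CPM, above the ON-bipolar sum of 4593 CPM. The summed level of the 6 rod markers, among them Nrl and Gnat1, was 9212 to 18090 CPM in the rod groups and at most 599 CPM in any other group. The summed level of the 6 cone markers, among them Arr3 and Gnat2, was 16140 to 44971 CPM in the cone groups and at most 391 CPM elsewhere. The 5 rod bipolar markers, among them Prkca, summed to 8089 CPM in rod bipolars and 423 CPM in cone bipolars. The 7 cone bipolar markers summed to 1327 CPM in cone bipolars and 424 CPM in rod bipolars. Of these, Grik1 went the other way, at 129 CPM in cone bipolars and 238 CPM in rod bipolars.

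Drd4 (ENSMUSG00000025496) lies on chromosome 7 of GRCm38 at 141292006 to 141296464, on the plus strand. Its coding transcript has 4 exons, and no other gene overlaps it. Adrb1 (ENSMUSG00000035283) lies on chromosome 19 at 56722199 to 56733113, also on the plus strand. Its coding transcript is a single exon that ends at 56725150, and no other gene overlaps it. Counting by strand therefore does not decide which gene their reads belong to. The sequences just upstream of both starts are shown because the levels of these genes differed between rods and cones, for Adrb1 far more than for Drd4. They are from RefSeq promoters on GRCm38.p6, 5′ to 3′ on the plus strand, with motif matches in capitals. The Drd4 stretch is chr7:141291768-141291973 and the Adrb1 stretch is chr19:56721867-56722116.
Drd4: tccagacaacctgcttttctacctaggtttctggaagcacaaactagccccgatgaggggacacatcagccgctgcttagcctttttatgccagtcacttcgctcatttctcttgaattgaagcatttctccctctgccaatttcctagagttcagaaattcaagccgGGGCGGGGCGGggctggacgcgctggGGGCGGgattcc
Adrb1: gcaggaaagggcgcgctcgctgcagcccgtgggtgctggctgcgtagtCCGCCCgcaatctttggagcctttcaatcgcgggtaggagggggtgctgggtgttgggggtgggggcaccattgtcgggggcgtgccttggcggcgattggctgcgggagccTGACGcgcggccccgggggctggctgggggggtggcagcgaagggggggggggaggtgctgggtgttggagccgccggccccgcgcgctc

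Both strands of the 300-base RefSeq window around each start were searched for 6 sets of letters. The GC box GGGCGG, which is in 35.7% of the 32851 promoters of this table, matched 3 times in Drd4 and once, as its reverse complement CCGCCC, in Adrb1. The first pair of Drd4 matches share a base. The CRE half-site TGACG, the core of the element bound by cyclic AMP-responsive factors, is in 20.8% of promoters and matched once in Adrb1 and 0 times in Drd4. The half-site TGCTGA, of the kind bound by the rod factor NRL, is in 19.5% of promoters and matched once in each gene, just downstream of the start and outside the letters shown. The photoreceptor homeodomain site TAATCC (7.06% of promoters), the shorter core GATTA (22%, overlapping the former on its reverse strand) and the E-box CACGTG (7.15%) had no match in either window. A match is a description of the letters and not a binding site.

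Drd4 was a photoreceptor transcript after P7, and it was higher in rods than in cones. In rods it stood at 2.63 and 1.71 CPM at P7, at 564 and 749 CPM at P13, and at 297 and 306 CPM at P30. The 3 ages did not overlap: the P7 libraries were near the bottom of the whole series, the P13 libraries were the highest of all 22, and the P30 libraries lay between. Against the mean at P7 (2.17 ± 0.649 CPM, SD, n = 2), the mean was 302.7-fold higher at P13 (656 ± 130.3 CPM) and 139-fold higher at P30 (301 ± 6.13 CPM). The rise from P7 to P30 was tested and was called, with a log2 fold change of 7.15 ± 0.61 (SE) and an adjusted p of 9e-07 (limma, Benjamini-Hochberg over the 13405 genes tested). A gene was called at an adjusted p under 0.05 and a change of at least 1 log2 unit. In that comparison 19.8% of all tested genes were called, 10.7% as higher at P30.

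From P13 to P30 the rod mean went from 656 to 301 CPM, with no overlap between the libraries. The log2 fold change of -1.11 ± 0.61 was not called (limma adjusted p 0.24, with 12% of tested genes called). In an alternative that ran limma's voom method on the reads recovered from the table, the same step was called, at -1.12 with an adjusted p of 0.0065. This step was chosen for a test after the levels were seen.

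In cones, Drd4 stood at 15.5 and 4.52 CPM at P7, at 313 and 145 CPM at P13, and at 75.8 and 149 CPM at P30. The P7 libraries were below all later ones, and the libraries of P13 and P30 overlapped. The cone mean was 22.9-fold higher at P13 (229 ± 119 CPM) than at P7 (10 ± 7.74 CPM), and 11.2-fold higher at P30 (112 ± 51.6 CPM) than at P7. The ratio between replicate cone libraries was larger than that between the rod libraries at each age. The order of rods and cones also turned with age: the cone mean was 4.61-fold above the rod mean at P7, with the cone libraries above both rod libraries, while the rod mean was 2.86-fold above the cone mean at P13 and 2.68-fold above it at P30, again with no overlap.

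Drd4 was low in every bipolar group. Bipolars stood at 1.86 and 2.32 CPM at P7, at 6.16 and 3.54 CPM at P13, and at 4.62 and 12 CPM at P30, where replicate 2 was the highest. Rod bipolars stood at 6.09 and 3.23 CPM and cone bipolars at 16.0 and 10.3 CPM at P13. The P7 libraries of bipolars were the lowest of these, the later bipolar and rod bipolar libraries overlapped, and the cone bipolar libraries were above the rod bipolar ones. The change of bipolars from P7 to P30, a log2 fold change of 1.84 ± 0.61, just missed the threshold (limma adjusted p 0.054, with 12.5% of tested genes called). It was called with 0.5 CPM added before the log (1.63, adjusted p 0.04) and without replicate 1 of bipolars at P30 (2.53, adjusted p 0.032). Rod bipolars against cone bipolars gave -1.53 ± 0.61, which was not called (limma adjusted p 0.19, with 4.68% of tested genes called). In the order of the 11 group means, rods at P13 came first, then rods at P30, whose libraries overlapped with those of cones at P13, and these with cones at P30. Cone bipolars came next, with no overlap with the cones of P13 and P30, and the lowest means were those of rods and bipolars at P7.

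Rods and bipolars had nearly the same Drd4 level at P7 and parted afterwards. At P7 the log2 difference of rods against bipolars was 0.03 ± 0.61 (limma adjusted p 0.99, with 28.4% of tested genes called), and its sign turned with the scaling: it was -0.15 with plain read totals. At P13 it was 7.12 ± 0.61 (limma adjusted p 2.3e-07, with 40.3% of tested genes called), a 135-fold ratio of the means. At P30 it was 5.34 ± 0.61 (limma adjusted p 5.4e-06, with 37.7% of tested genes called), a 36.3-fold ratio. The rise from P7 to P30 was larger in rods than in bipolars by 5.31 ± 0.86 log2 units (limma adjusted p 0.00073, with 14.4% of tested genes called). This difference between the rises was also chosen for a test after the levels were seen, and with voom on the recovered reads it missed the threshold, at 5.38 with an adjusted p of 0.082.

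**Figure D1:**
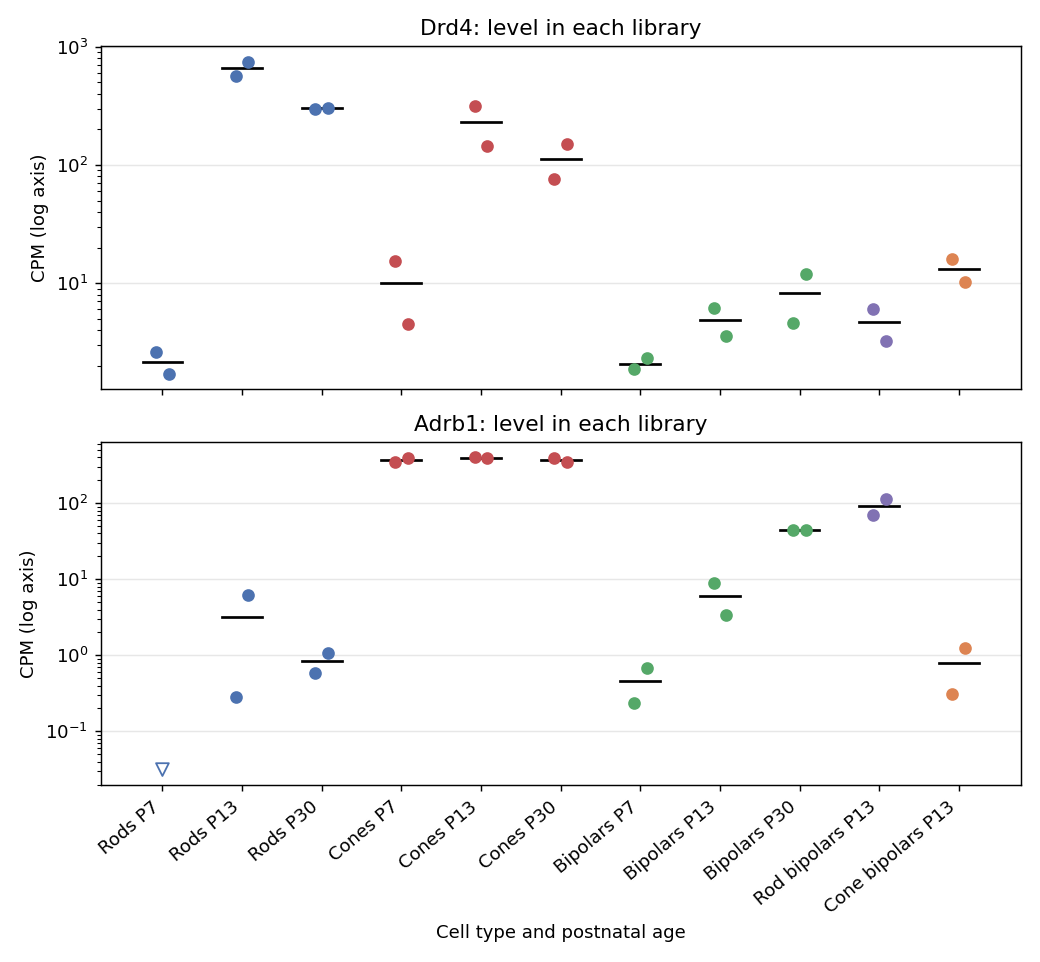
Level of Drd4 (top) and Adrb1 (bottom) in each of the 22 libraries, in CPM on a log axis, by cell type and age. Points are libraries, bars are means of 2 libraries, and the open triangle marks rods at P7, where Adrb1 had no read and the limit set by 3 reads over both libraries is 0.0314 CPM. Drd4 was highest in rods at P13 (656 CPM), and Adrb1 stayed between 344 and 401 CPM in all 6 cone libraries.

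Adrb1 was a cone transcript at all 3 ages and did not follow the time course of Drd4. Cones stood at 344 and 394 CPM at P7, at 401 and 395 CPM at P13, and at 392 and 348 CPM at P30. The 6 cone libraries were the highest of the series and were close to each other. The means were 369 ± 35.2, 398 ± 4.33 and 370.4 ± 31.1 CPM (SD, n = 2 each), so that Adrb1 was high in cones and did not rise there with age. The log2 difference from P7 to P30 was 0.01 as deposited, -0.78 when libraries were scaled by their plain read totals, and -0.26 without mitochondrial genome transcripts. The median of all tested genes moved with these scalings too, from -0.19 to -0.97 and -0.46.

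In rods, Adrb1 had no read in either library at P7, which allows a level of up to 0.0314 CPM (3 reads over both libraries, for counting error only). Rods stood at 0.281 and 6.16 CPM at P13 and at 0.589 and 1.08 CPM at P30. Nearly all rod reads at P13 came from replicate 2, with 245 reads against 8 in replicate 1. In the same libraries, the 6 cone markers summed to 114 CPM in replicate 2 and 23.5 CPM in replicate 1, and the part of this in the Adrb1 level was not tested. The cone mean was at least 11742-fold above rods at P7, 124-fold above them at P13 and 444-fold above them at P30. From P7 to P30 the rod level went from no read to 84 reads, at least 26.5-fold higher. This was called on the deposited values (limma log2 fold change 6.79 ± 1.06, adjusted p 0.00027), but its size depends on the small value added before the log, and with 0.5 CPM added it was 1.39 with an adjusted p of 0.17.

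In bipolars, Adrb1 rose with age. Bipolars stood at 0.233 and 0.678 CPM at P7, at 8.83 and 3.39 CPM at P13, and at 44.8 and 44.2 CPM at P30. The 3 ages did not overlap. The mean at P30 (44.5 ± 0.377 CPM) was 97.7-fold above that at P7, where both libraries together held 17 reads. The rise was called (limma log2 fold change 6.78 ± 1.06, adjusted p 0.00044, with 7.95% of tested genes called as higher) and was called under all alternatives run. Bipolars include rod bipolars, on which Adrb1 was selected, so this call is not fully free of the selection. The step from P13 to P30, 7.29-fold on the means, gave 3.02 ± 1.06 and was not called (limma adjusted p 0.19, with 1.86% of tested genes called). It was called with 0.5 CPM added before the log (2.90, adjusted p 0.018) and with voom (3.02, adjusted p 0.038).

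Markers of other cells were measured in the same bipolar libraries, as summed levels at P7, P13 and P30. The 5 rod bipolar markers stood at 709, 1300 and 2452 CPM, while the 7 cone bipolar markers stood at 2427, 1439 and 1299 CPM and the 6 ON-bipolar markers at 6230, 5172 and 4593 CPM. The rod bipolar sum was thus higher, and the cone bipolar and ON-bipolar sums lower, at each later age. The 6 Müller glia markers stood at 175, 783 and 4983 CPM, the 5 vascular markers at 28.0, 86.2 and 416 CPM, the 4 microglia markers at 4.28, 32.5 and 187 CPM and the 4 red blood cell genes at 0.0515, 33.4 and 139.8 CPM. The 6 amacrine markers stood at 212, 233 and 545 CPM, the 6 ganglion cell markers at 10.3, 75.8 and 96.3 CPM, and the 6 cone markers at 136, 119 and 391 CPM. All 7 of these sums were highest at P30. The 6 rod markers stood at 102, 88.7 and 194 CPM, the 2 measured of 4 dopaminergic amacrine markers at 6.25, 6.74 and 11.3 CPM, the 2 measured of 4 horizontal cell markers at 155, 41.2 and 52.0 CPM and the 2 measured of 3 pigment epithelium markers at 7.39, 70.7 and 7.28 CPM. Genes with no read in a bipolar group were Pdgfrb, a vascular marker, and Hba-a1, Hba-a2 and Hbb-bt of the red blood cell genes, all at P7. The part of these cells in the Adrb1 change, and in the other results on bipolars, was not tested.

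Within the bipolar class at P13, Adrb1 was found in rod bipolars. Rod bipolars stood at 69.9 and 112 CPM and cone bipolars at 0.312 and 1.25 CPM. Both rod bipolar libraries were far above both cone bipolar libraries and above the bipolars of the same age. The mean of rod bipolars (90.9 ± 29.8 CPM) was 116-fold that of cone bipolars (0.783 ± 0.666 CPM) and 14.9-fold that of bipolars (6.11 ± 3.84 CPM), and cones of that age were 4.38-fold above rod bipolars. In the order of the 11 groups, the cones came first, then rod bipolars, then bipolars at P30, with no overlap between these steps. Below them, bipolars at P13 overlapped with rods at P13, and these with rods at P30, cone bipolars and bipolars at P7 in turn.

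Against bipolars, Adrb1 was lower in rods at P7 and P30. At P7 rods were at least 14.5-fold lower (limma log2 fold change -5.80 ± 1.06, adjusted p 0.00062). That call rests on 17 reads in bipolars: it was lost with 0.5 CPM added (-0.89, adjusted p 0.36) and with voom (-5.32, adjusted p 0.052). At P30 bipolars were 53.4-fold above rods (limma log2 fold change of rods against bipolars -5.79 ± 1.06, adjusted p 0.00047). At P13 the difference was -2.04 ± 1.06 and was not called (limma adjusted p 0.13), and replicate 1 and replicate 2 of rods decided it: without replicate 1 it was 0.17, and without replicate 2 it was -4.25 and was called (adjusted p 0.0013). The rises of rods and bipolars from P7 to P30 differed by 0.01 ± 1.5 log2 units (limma adjusted p 1), an interval too wide to show that they were alike. With 0.5 CPM added the difference was -4.21 and was called (adjusted p 0.0057).

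**Figure D2:**
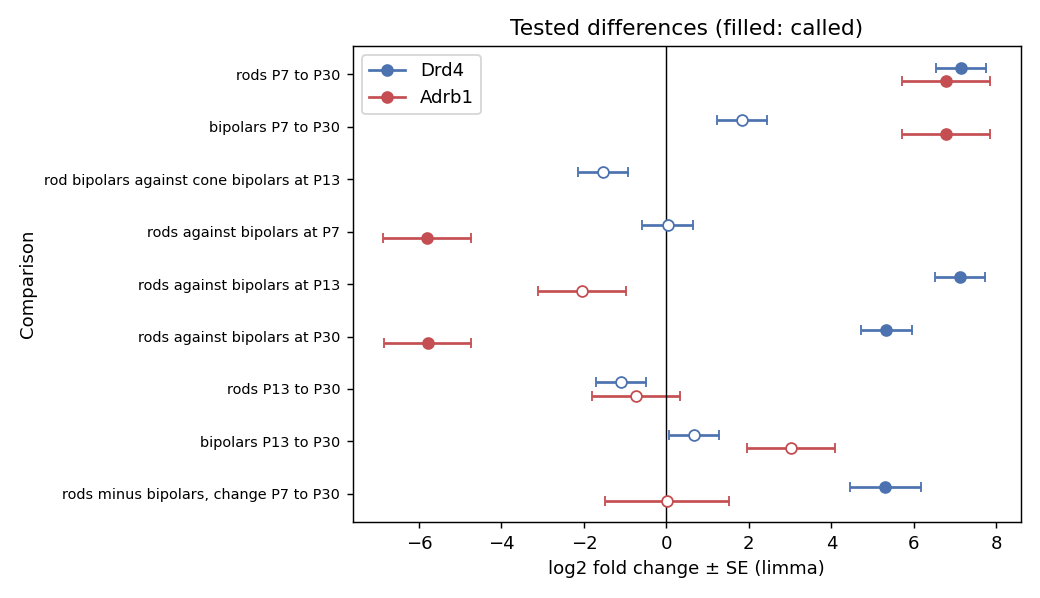
Tested differences of Drd4 (blue) and Adrb1 (red) as log2 fold changes with SE bars from limma on all 22 libraries. Filled points were called. Drd4 was called in rods from P7 to P30 (7.15) and for rods against bipolars at P13 (7.12) and P30 (5.34), while Adrb1 was called in bipolars from P7 to P30 (6.78) and lower in rods than in bipolars at P30 (-5.79). Also called, but lost under an alternative, were Adrb1 in rods from P7 to P30 (6.79) and in rods against bipolars at P7 (-5.80). The difference of the rises of Drd4 in rods and bipolars (5.31) was likewise called and lost.

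Traces of another sorted type were measured beside each level. Rod markers in the cone libraries summed to 2.34% to 4.25% of their level in rods of the same age. Drd4 in cones was 22.1% to 49.4% of its level in rods at P13 and P30, and 209% and 713% of it at P7, so that Drd4 was present in cones at a larger share than the rod markers were. In the bipolar, rod bipolar and cone bipolar libraries of P13 and P30, rod markers were at 0.521% to 3.13% and Drd4 was at 0.492% to 3.98% of rods. There the ranges were nearly the same, but the shares did not match library by library. In replicate 1 of rod bipolars, rod markers were at 2.70% and Drd4 at 0.927%. In replicate 2 of bipolars at P30, rod markers were at 1.06% and Drd4 at 3.98%. Of the mean rod marker sum of 194 CPM in bipolars at P30, Cngb1 alone made 116 CPM. The part of rod RNA in the Drd4 levels of these groups was not tested. Cone markers in rod bipolars were at 0.186% and 0.219% of cones, and Adrb1 was at 28.1% and 17.5%. In bipolars at P30, cone markers were at 0.857% and 0.882%, and Adrb1 was at 12.1% and 11.9%. All 6 rod markers and all 6 cone markers had reads in the rod bipolar, cone bipolar and bipolar groups.

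**Figure D3:**
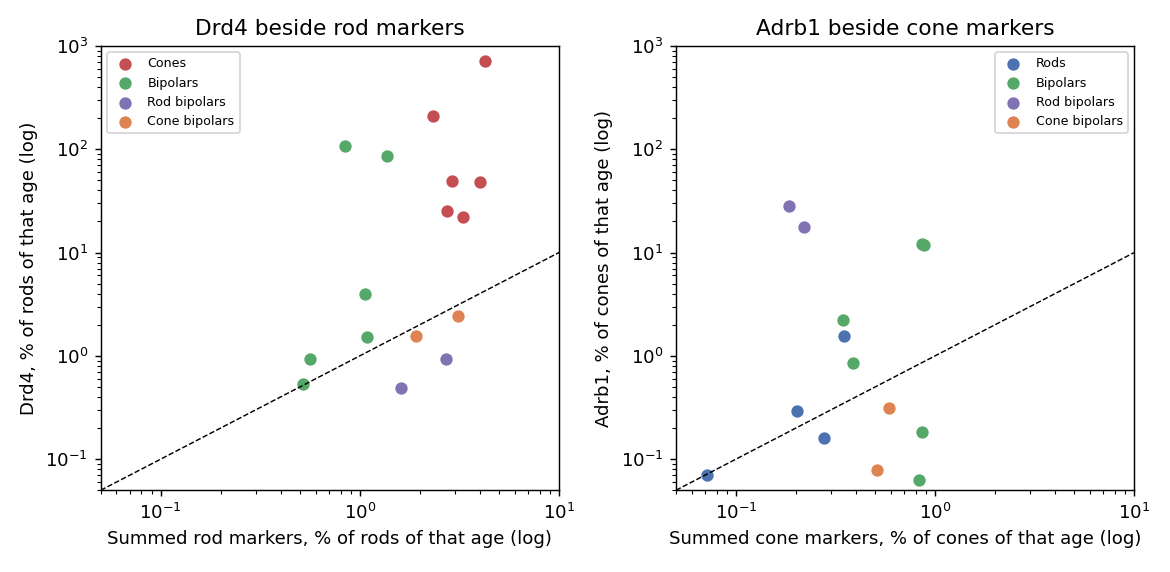
Level of a receptor gene against the summed markers of a photoreceptor type, both as a percent of that type at the same age, on log axes, with a point per library and a dashed line of equal shares. Left, Drd4 and rod markers: the cone libraries lie above the line (22.1% to 713% for Drd4). Right, Adrb1 and cone markers: the rod bipolar libraries lie above the line (17.5% and 28.1%), and the rod libraries of P7 have no Adrb1 read and are not drawn.

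Of the other receptors of dopamine and noradrenaline, Drd1, Drd2 and Adra2c were bipolar transcripts. Besides Drd4 and Adrb1, the receptor genes described here are Drd1, Drd2, Adra2a, Adra2b and Adra2c, 7 in all. Drd3, Drd5, Adra1a, Adra1b, Adra1d and Adrb3 were not among the 13785 genes with a symbol, and Adra2b was too low to be tested. Of the other 4, 3 were lower in rods than in bipolars at each age (Drd1, Drd2 and Adra2c), in comparisons where 28.4%, 40.3% and 37.7% of all tested genes were called at P7, P13 and P30, and Adra2a was called higher in rods at P30.

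Drd1, whose product couples to stimulatory G proteins, was the leading dopamine receptor of bipolars. It stood at 147 and 174 CPM in bipolars at P7, at 289 and 320.1 CPM at P13, and at 295 and 243 CPM at P30. Cone bipolars stood at 446 and 472 CPM and rod bipolars at 19.8 and 30.2 CPM, so that its levels in these classes ran opposite to those of Adrb1. Rods had no Drd1 read at P7 and P13 and 35 reads at P30, all in replicate 1. At P30 rods were lower than bipolars by a log2 fold change of -11.78 ± 1.91 (limma adjusted p 0.00016). The size of that difference depends on the small value added before the log. Rod bipolars against cone bipolars gave -4.23 ± 1.91, which was not called (limma adjusted p 0.26). The libraries of these classes did not overlap. The SE comes from a spread pooled over all 11 groups, among them cones at P13 with 7 and 365 reads.

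Drd2, whose product couples to inhibitory G proteins as that of Drd4 does, had group means of 1.65, 20.4 and 11.8 CPM in bipolars at P7, P13 and P30. It was at 20.7 CPM in rod bipolars and 28.4 CPM in cone bipolars. Its rod and cone groups held at most 16 reads, in cones at P7. Adra2c, an α2-adrenergic receptor gene, had means of 1.11, 8.61 and 18.3 CPM in bipolars. It was lower in rod bipolars (0.555 CPM) than in cone bipolars (13.6 CPM), with a log2 fold change of -7.21 ± 1.77 (limma adjusted p 0.024). The rod bipolar libraries held 0 and 22 reads of it, so that the fold change depends on the small value added before the log. Adra2a went the other way among cell types, with means of 4.24, 8.34 and 34.7 CPM in rods and at most 1.63 CPM in bipolars. In rods at P13, Adra2a was at 16.6 CPM in replicate 1 and 0.0503 CPM in replicate 2. Its call against bipolars at P30 (limma log2 fold change 4.61 ± 1.76, adjusted p 0.044) lay close to the threshold and was lost under several alternatives.

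Per kilobase of exon, a rough scale for comparing genes, Drd4 led in rods at 194 CPM per kb at P13 and 89.2 at P30. The length counts all annotated exons of a gene, whichever transcript the cells make. Adrb1 led in cones at all ages, at 109, 118 and 109.5 CPM per kb, with Drd4 next at 2.96, 67.8 and 33.2. Drd1 led in bipolars and in cone bipolars (126 CPM per kb), and Adrb1 in rod bipolars (26.9 CPM per kb). In rods at P7, where all 7 genes were low, Adra2a was at 0.878 and Drd4 at 0.641 CPM per kb.

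**Figure D4:**
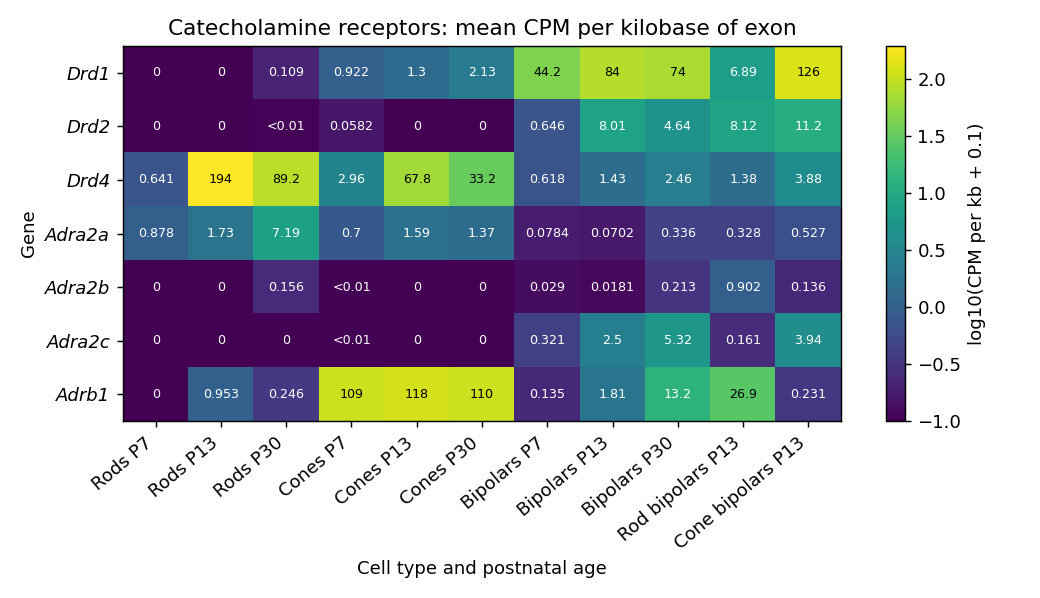
Mean CPM per kilobase of exon of 7 catecholamine receptor genes in the 11 groups, printed in each cell, with colour on a log10 scale after adding 0.1. Drd4 reached 194 in rods at P13, Adrb1 109 to 118 in cones and 26.9 in rod bipolars, and Drd1 126 in cone bipolars.

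Genes that act beside these receptors were counted in lists, which were drawn up with earlier results of these data known. In bipolars at P30 the Müller glia marker sum was above the ON-bipolar one, and its part in the bipolar results below was not tested. Adenylyl cyclases make cyclic AMP from ATP. Of the 7 measured, 1 rose and 1 fell in rods from P7 to P30, and 2 rose in bipolars, where the median log2 change was 0.53 against 0.02 for all tested genes. Of all tested genes, 19.8% were called in rods, 10.7% as higher, and 7.95% were called as higher in bipolars, so that the rod count is near the background. Adcy1, a calcium-stimulated cyclase, had means of 172, 499 and 478 CPM in rods and 13.1, 19.3 and 149.8 CPM in bipolars at P7, P13 and P30. Its rise in bipolars was 3.51 ± 0.54 (limma adjusted p 0.00034). Adcy2 moved in opposite directions: its means were 52.6, 17.2 and 1.17 CPM in rods, where it fell (-5.47 ± 0.67, limma adjusted p 3.1e-05), and 9.71, 203 and 211 CPM in bipolars, where it rose (4.42 ± 0.67, limma adjusted p 0.00032). Cones kept 119, 122.5 and 82.1 CPM of Adcy2, and at P30 they were 6.16 ± 0.67 log2 units above rods (limma adjusted p 8.2e-06, with 20% of tested genes called).

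G protein subunits pass the signal from receptor to cyclase. Of 12, 5 were higher and 2 lower in cones than in rods at P30 (10% and 9.98% of all tested genes were), with a median log2 difference of 1.03 against -0.14 for all tested genes. Gnb1 and Gnb3, which encode the β subunits of the rod and cone transducins, parted as the photoreceptor types do: Gnb1 had means of 4446 CPM in rods against 159.8 CPM in cones, and Gnb3 of 90.7 CPM in rods against 1403 CPM in cones. The inhibitory subunit gene Gnaz was higher in rods than in bipolars at P30 (108 against 12.4 CPM, log2 fold change 3.09), and Gnao1, whose product carries the mGluR6 signal of ON-bipolar cells, was lower (29.3 against 1429 CPM, log2 fold change -5.65).

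Protein kinase A is the main target of cyclic AMP. The list held 17 genes for its subunits, inhibitors and other cyclic AMP effectors. At P30, 4 of the 17 were higher and 0 lower in cones than in rods. The background shares of that comparison were 10% called as higher in cones and 9.98% called as lower. The median log2 difference was 0.75 for the list, against -0.14 for all tested genes. Prkaca and Prkacb, which encode catalytic subunits, were at 33.0 and 53.4 CPM in rods and 102 and 262 CPM in cones at P30. Their log2 differences were 1.63 ± 0.17 (limma adjusted p 6.3e-06) and 2.29 ± 0.19 (limma adjusted p 6.8e-07). Against bipolars at P30, 8 of the 17 were lower in rods and 0 were higher (22% and 15.7% of all tested genes were), with a median of -2.17 against -0.08 for all tested genes. In rods from P7 to P30, 3 rose and 3 fell, with 19.8% of all tested genes called.

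Phosphodiesterases break cyclic AMP down. Of 14 measured, 3 rose and 1 fell in rods from P7 to P30, and at P30 8 were lower and 1 higher in rods than in bipolars, with a median of -5.58 against -0.08 for all tested genes. All tested genes had 10.7% called as higher in rods from P7 to P30, and 22% lower and 15.7% higher in rods than in bipolars at P30. Pde8b, which was the higher one, had means of 198 to 367 CPM in the rod groups, 254 to 345 CPM in the cone groups and 12.3 to 32.4 CPM in bipolars. Pde8a rose in rods from 3.30 to 73.3 CPM (log2 fold change 4.61 ± 0.47, limma adjusted p 6e-06). Pde4a was at 73.8 CPM in bipolars and 0.437 CPM in rods at P30.

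Receptor kinases and β-arrestins switch such receptors off. Of 7, 2 rose and 1 fell in rods from P7 to P30, and 2 were lower in rods than in bipolars at P30, where 22% of all tested genes were lower, a share near that of the list. In rods from P7 to P30, 19.8% of all tested genes were called. Arrb1, the gene of β-arrestin 1, had means of 3.22, 0.0829 and 0.241 CPM in rods and 70.4, 45.1 and 51.1 CPM in bipolars. Of the 10 measured genes of catecholamine synthesis, transport and breakdown, 0 rose and 4 fell in rods, with a median of -1.27 against 0.10 for all tested genes, and 2 rose in bipolars. The shares of all tested genes were 19.8% called in rods, 10.7% as higher, and 7.95% called as higher in bipolars. Qdpr, which regenerates the cofactor of tyrosine hydroxylase, fell in rods from 75.9 to 29.5 CPM (log2 fold change -1.37 ± 0.27, limma adjusted p 0.0015). Th and Slc6a3, the tyrosine hydroxylase and dopamine transporter genes, were not among the 13785 genes with a symbol.

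The last list held genes of light and dark signalling in the retina. Of 12 measured, 1 rose and 1 fell in rods, 1 rose and 1 fell in cones, and 3 rose and 1 fell in bipolars from P7 to P30. The shares called of all tested genes were 19.8%, 10.5% and 12.5%, and the rod and cone counts are near them. Mtnr1a, which encodes a melatonin receptor, fell in cones from 9.63 and 15.7 CPM at P7 to 7.07 and 6.93 CPM at P13 and no read at P30 (limma adjusted p 0.00017). Gjd2, which encodes the gap junction protein connexin 36, had means of 33.5, 114 and 111 CPM in rods and 28.6, 67.9 and 91.2 CPM in cones. At P13 it was at 15.2 and 7.67 CPM in rod bipolars and at 359 and 335 CPM in cone bipolars, a log2 difference of -5.01 ± 0.27 (limma adjusted p 2.4e-08). The clock genes Per2 and Arntl moved oppositely in bipolars: Per2 rose from 5.28 to 46.4 CPM (3.13 ± 0.60, limma adjusted p 0.0021) and Arntl fell from 263 to 83.6 CPM (-1.65 ± 0.25, limma adjusted p 0.00033).

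The genes whose 11 group means were most like those of each receptor gene were ranked among 11429 genes by Pearson correlation of log2 CPM. Groups of a cell type share their source, and the correlation describes these libraries only. For Drd4 the first 5 were Taf7 (r = 0.93), Cbr4, Osgepl1, Arg2 and Gpatch11 (0.92 each). None of them had its range: Arg2 went from 0.453 CPM in rods at P7 to 11.8 CPM at P30, and Cbr4 from 27.7 to 104 CPM at P13. For Adrb1 they were Notch2 (r = 0.97), Kcne2 (0.95), Slc4a8 (0.94), Lrfn2 (0.94) and Lgr5 (0.93). Kcne2, a potassium channel subunit gene, had the same order of cones, rod bipolars and bipolars at P30 as Adrb1, at higher levels, with means of 1186 to 2688 CPM in cones, 427 CPM in rod bipolars, 8.15 CPM in cone bipolars and 0.452 to 5.52 CPM in rods. It also went from 4.52 through 38.1 to 147 CPM in bipolars at P7, P13 and P30. Drd4 and Adrb1 had a correlation of 0.25 with each other.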

How the data were processed

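RNA from sorted retinal cells was isolated, amplified in a linear fashion and made into TruSeq libraries, per the labels. The submitters' processing notes name STAR, edgeR and GRCm38 (mm10), with no versions. The sources used here do not give the read counter, strandedness, annotation or gene filter. The table deposited by the authors holds log2 CPM with 1 value per gene and library, scaled by effective library sizes that were 0.608 to 1.23 times the read totals. A gene with no read has the value -7.10. With that floor taken off, 100% of the values lay within 0.01 of whole reads. These reads were used for depth, floors and 1 alternative. GENCODE M21 gave symbols for 13785 IDs, and the other 27 were left out.

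The log2 values of all 22 libraries were fitted with limma 3.58.1 (R 4.3.3), with 1 coefficient per group, 11 residual degrees of freedom, empirical Bayes moderation with a trend, and Benjamini-Hochberg adjustment. The fold changes are therefore on the scale of log2 CPM with the deposited prior. Genes with log2 CPM of at least 0 in both libraries of a group were tested, which left 13405 and took out 380, and both receptor genes passed. The script was tested on simulated data. The genes and lists were chosen with earlier results of these data known, and 3 comparisons (rods and bipolars from P13 to P30, and the difference of their changes from P7 to P30) were added after the levels were seen. Named genes were the catecholamine receptors, up to 4 called members per list by size of change, and the 5 genes most like each receptor gene, and members that lost a call under alternatives were mostly left out. A gene of the receptor list is not reported here. Alternatives were another added value, scaling, filter, set of libraries, voom, a replicate block and leaving out each library. Same-numbered replicates were checked for pairing.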

Additional observations from a re-analysis of the deposited data

Results flagged for a closer look

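The rise of Drd4 from P7 to P30 differed between rods and bipolars: the test of that difference in limma gave 5.31 ± 0.86 log2 units (adjusted p 0.00073, with 2 libraries in each of the 4 groups). Drd4 was higher at P30 in both rod libraries and in both bipolar libraries than in any library of the same cells at P7. The comparison was chosen after the levels were seen.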

How the results depend on the processing

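The calls of Drd4 in rods from P7 to P30 and of rods against bipolars at P13 and P30, and those of Adrb1 in bipolars from P7 to P30 and of rods against bipolars at P30, held under all alternatives run. Causes of the other changes were not tested. With 0.5 CPM added before the log, Adrb1 in rods from P7 to P30 was 1.39 and in rods against bipolars at P7 -0.89, both no longer called, and Drd4 in bipolars from P7 to P30 (1.63) and Adrb1 in bipolars from P13 to P30 (2.90) were called. The difference of the rises of Adrb1 turned to -4.21, and Adrb1 of cones minus rods at P30 was 8.14. With voom, Adrb1 in rods against bipolars at P7 (-5.32) and the difference of the rises of Drd4 (5.38) lost their calls, Drd4 in rods (-1.12) and Adrb1 in bipolars (3.02) from P13 to P30 gained them, and the difference of the rises of Adrb1 turned to -0.44. With plain read totals, Drd4 in rods against bipolars at P7 turned to -0.15 (-0.17 without mitochondrial genome transcripts), Adrb1 in cones from P7 to P30 to -0.78 (-0.26), Drd4 of cones minus rods at P30 was -2.11 and Adrb1 8.24.

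Counts of called genes moved by over 1.5 times with 0.5 CPM added in bipolars from P7 to P30 (2843 against 1669), in rod against cone bipolars (1134 against 628), in bipolars from P13 to P30 (714 against 250) and for the difference of the rises (2957 against 1934). In fits of the compared groups alone they were 937 against 2660 for rods from P7 to P30, 3393 for bipolars from P7 to P30, 749 against 1403 for cones from P7 to P30, 863 against 2684 for cones against rods at P30, 3511 against 5397 for rods against bipolars at P13 and 0 against 1614 for rods from P13 to P30. With plain totals the cones from P7 to P30 had 3653.

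Leaving out each library in turn, Drd4 ranged from 1.15 to 2.53 in bipolars from P7 to P30, from -0.28 to 0.34 in rods against bipolars at P7 and from -0.015 to 1.36 in bipolars from P13 to P30. Adrb1 ranged from -4.25 to 0.17 in rods against bipolars at P13, from -2.94 to 1.48 in rods from P13 to P30, from -0.75 to 0.77 for the difference of the rises and from -0.091 to 0.10 in cones from P7 to P30. The counts ranged from 825 to 1415 in bipolars from P7 to P30, 362 to 2017 in cones from P7 to P30, 297 to 643 in rod against cone bipolars, 783 to 3069 in rods from P13 to P30, 64 to 286 in bipolars from P13 to P30 and 1241 to 1776 for the difference of the rises.

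For each gene, the difference between the 2 replicates of a group was taken. Between compared groups, these differences had correlations over genes of -0.10 to 0.14, so the replicate numbers showed no pairing. A replicate block gave 2653 called genes in rods from P7 to P30 and changed no call of Drd4 or Adrb1. With 2 libraries a group, each test used a spread per gene pooled over the 11 groups. Libraries that disagreed in a group thus widened the SE of every comparison of that gene. Differences below that spread cannot be shown, and levels of Adrb1 in rods rest on 0 to 253 reads a group.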
